A study of Saccharomyces cerevisiae with 24 samples.

Results

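Meiosis and sporulation genes were followed in budding yeast cells that were dividing by mitosis. The set holds 41 genes of Saccharomyces cerevisiae, chosen by name: 4 regulators, 19 early genes of meiotic prophase and 18 middle or late genes of spore formation. The choice was made with earlier results of these data known. All 41 were found in the count table, which held 7127 features, 6600 of them mRNA features, and all 41 were among the 6518 features that passed the filter on low counts. The study asked how point mutations in Npl3, an SR-like protein that binds nascent transcripts and travels with the mRNA, change gene expression.

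Each strain was a haploid W303 strain of mating type a, labelled npl3-shuffle, that carried the tested allele on the plasmid pRS315. The alleles were npl3-F162Y (series name npl3-RRM1, for the first RNA recognition motif), npl3-P196D-A197D (npl3-Linker) and npl3-F245I (npl3-RRM2), set against plasmid-borne wild-type NPL3. All strains also carried the marker alleles ade2-1, can1-100, his3-11,15, trp1-1, ura3-1 and leu2-3 with leu2-112, and were GAL+. Cells grew in rich medium (YPD) to mid-log phase at 30 °C, and 1 set of cultures was then held for 1 hour at 37 °C. This gave 8 groups of 3 libraries each. The labels do not say that the 3 libraries of a group came from separate cultures or transformants, so the spread between them may be technical.

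In yeast, meiosis starts when diploid cells with both mating types starve: the activator Ime1 joins the DNA-binding protein Ume6 at URS1 elements and turns on the early genes, which pair and recombine the chromosomes. The kinase Ime2 and the activator Ndt80 then drive the middle genes through middle sporulation elements (MSE), and these genes divide the nucleus and wrap each product in a prospore membrane and a spore wall. In mitotic cells, Ume6 with the Sin3-Rpd3 deacetylase complex holds the early genes down at URS1 and Sum1 holds many middle genes down at the MSE. In haploid cells, Rme1 also blocks IME1, in part by driving the noncoding RNA IRT1 across the IME1 promoter.

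The libraries held 15.8 to 34.7 M counts assigned to features (median 24.9 M), and levels are given as CPM, counts per 1000000 after TMM scaling of each library. Together the 41 genes took 0.0358 to 0.0894% of a library's counts. The npl3 alleles are point mutations, so the NPL3 count does not check which allele a library carries. It averaged 272 ± 17.2 CPM in the npl3-F162Y strain, 329 ± 6.45 CPM in the npl3-P196D-A197D strain and 212 ± 5.77 CPM in the npl3-F245I strain, against 204 ± 5.19 CPM in NPL3 at 30 °C (SD, n = 3). Exact two-sided permutation tests of log2 CPM gave p = 0.1, 0.1 and 0.2 for these alleles, and 0.1 is the smallest that 3 libraries against 3 allow. At 37 °C the means were 255, 299 and 342 CPM for these alleles, against 192 CPM in NPL3. The same permutation test gave p = 0.1 for each allele at 37 °C. The libraries of NPL3 at 37 °C differed more from each other than those of any other group, with a chi-square per degree of freedom of 24.8 to 56.7 between pairs, against 2.73 to 16.9 in the other 7 groups, and no pair agreed within counting noise.

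The labelled mating type was checked with marker lists. The 6 a-cell markers (such as MFA1 and STE2) summed to 887.7 to 1091 CPM at 37 °C, against 1601 to 2747 CPM at 30 °C. Of 8 alpha-cell markers, HMLALPHA1, HMLALPHA2, MATALPHA1 and MATALPHA2 were listed at 0 in every library, but each has a copy with 100% identity elsewhere in the genome, so reads from them need not be countable. The 8 alpha-cell markers summed to 106.4 to 112.9 CPM in the npl3-F162Y strain, 92.2 to 100.2 CPM in the npl3-P196D-A197D strain and 117.7 to 126.5 CPM in the npl3-F245I strain, against 67.4 to 72.3 CPM in NPL3 at 30 °C, most of it from SAG1, the alpha-agglutinin gene. The a-cell markers ran the other way at 30 °C, with sums of 1698 to 1724 CPM in the npl3-F162Y strain, 1896 to 1950 CPM in the npl3-P196D-A197D strain and 1601 to 1630 CPM in the npl3-F245I strain, against 2666 to 2747 CPM in NPL3. Of 7 haploid-specific genes, 4 fell in each mutant at 30 °C and 1 rose in npl3-F245I. Of all features 38.6% fell in npl3-F162Y, 31.7% in npl3-P196D-A197D and 33.3% in npl3-F245I, and 24.5% rose in npl3-F245I. The part of these marker changes in the results below was not tested.

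The elements named above were looked for in the 250 bases before and the 50 bases after each start codon, on both strands, in build R64 (sequence from RefSeq). The letters searched were AGCCGCC for the URS1 core and GNCACAAA for the MSE. URS1 was found before 12 of the 41 genes (29.3%), against 130 of 6001 nuclear protein-coding genes (2.17%), and the MSE before 9 (22.0%), against 259 (4.32%). The windows printed here are the matches of the regulators and of the genes with the largest changes in the comparisons below, with 10 bases on either side, read 5' to 3' on the strand that carries the motif. Capitals mark the motif.
MEK1 (URS1, chrXV:996629-996655, plus strand): tgaatgaaatAGCCGCCgaaatttagc
MEK1 (URS1, chrXV:996643-996669, plus strand): gccgaaatttAGCCGCCatcattcttc
REC114 (URS1, chrXIII:536105-536131, minus strand): tttataagttAGCCGCCcaccttgtaa
MEI5 (URS1, chrXVI:321741-321767, minus strand): aaaaagtattAGCCGCCcaaacttcta
SAE3 (URS1, chrVIII:262646-262672, plus strand): gaaatagaatAGCCGCCattaggcaga
HOP2 (URS1, chrVII:435486-435512, minus strand): tggaaaatttAGCCGCCgaggacataa
ZIP1 (URS1, chrIV:1032406-1032432, minus strand): ctaaaaatttAGCCGCCgagggtattt
MPC54 (URS1, chrXV:667351-667377, minus strand): cctgatctctAGCCGCCctcggctcta
NDT80 (MSE, chrVIII:356330-356357, plus strand): caggccgtatGACACAAAagagtagaaa
NDT80 (MSE, chrVIII:356466-356493, minus strand): ttaaataggtGACACAAAatggagggca
SPR28 (MSE, chrIV:905132-905159, plus strand): ttatgggaatGACACAAAatgtagacgc
SPO21 (MSE, chrXV:145206-145233, plus strand): tttttttaatGTCACAAAaagaaaaatt
SPO74 (MSE, chrVII:185497-185524, plus strand): tatttcttgtGACACAAAagagaacatt
SPS2 (MSE, chrIV:1485316-1485343, plus strand): tctaagtaatGCCACAAAatattttttt
SPS4 (MSE, chrXV:903049-903076, minus strand): attgacgcgcGCCACAAAaacgtatcat
GAS4 (MSE, chrXV:71179-71206, plus strand): ctgaggtagcGGCACAAAaaaacgacac
Of the 12 genes with URS1, 11 were early genes and 1, MPC54, was a middle gene; MEK1 had a pair of matches 14 bases apart. Of the 9 genes with an MSE, 8 were middle or late genes and the ninth was NDT80, which had a pair of matches. IME1, IME2 and UME6 had neither motif in this window. A match of letters is a description and shows no binding.

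**Figure D1:**
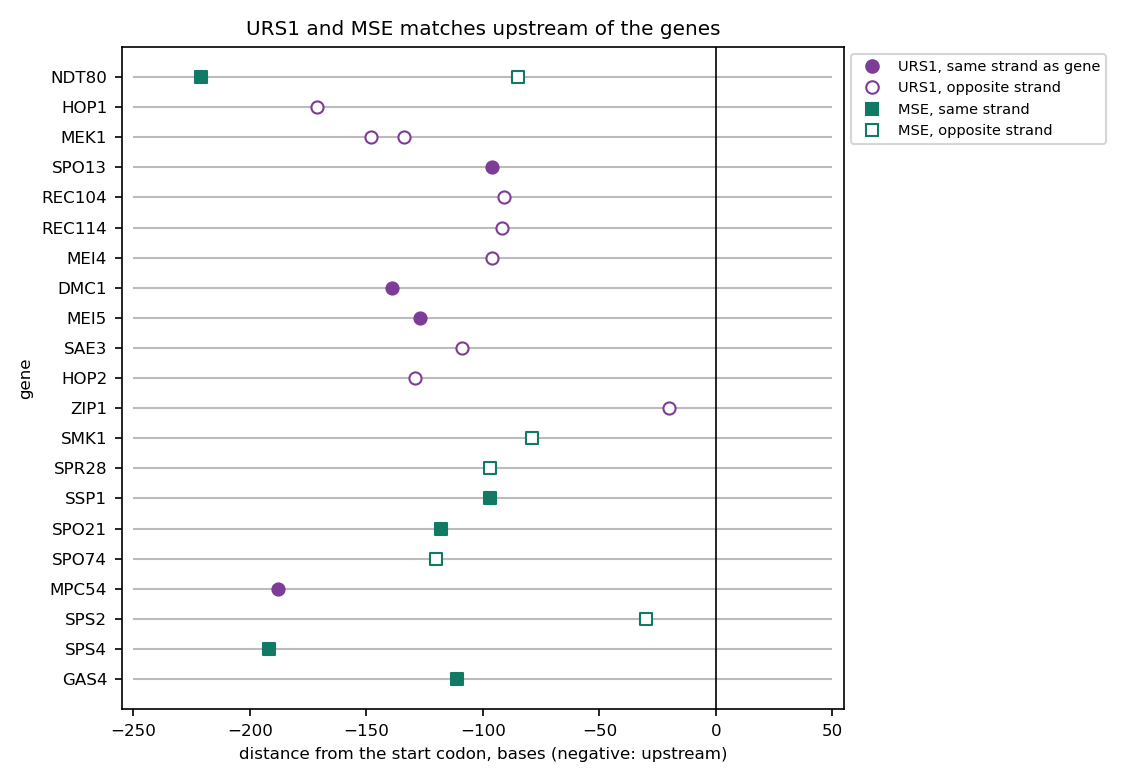
Position of each URS1 match (circles) and MSE match (squares) relative to the start codon, in bases, for the 21 genes with a match; filled symbols lie on the strand of the gene and open symbols on the other strand. The URS1 match of ZIP1 at -20 and the MSE match of SPS2 at -30 lie nearest to the start codon.

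In NPL3 cells at 30 °C these genes were low. Their median level was 6.92 CPM, against 73.7 CPM over 6273 tested mRNA features, and all 41 lay below that median. Each was nevertheless counted in every library, with a lowest value of 3 counts. Per kilobase of coding length, UME6 was highest at 21.1 ± 1.6 CPM per kb (SD, n = 3), followed by SPS4 at 17.9 ± 1.77, REC104 at 16 ± 1.95 and IME1 at 13.5 ± 0.42 CPM per kb. SPS4 and REC104 did not differ beyond their spread. At the other end stood SPS2 at 0.268 ± 0.111, MEI5 at 0.312 ± 0.124, REC114 at 0.333 ± 0.119, MEK1 at 0.421 ± 0.104 and SAE3 at 0.932 ± 0.442 CPM per kb. MEI5 had under 10 counts in 16 of 24 libraries, SAE3 and SPS2 in 4 and REC114 in 3, and their fold changes rest on these few counts.

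At 30 °C most of the 41 genes were higher in each mutant than in NPL3. Their summed level was 613 ± 13.4 CPM in the npl3-F162Y strain, 527 ± 7.87 CPM in the npl3-P196D-A197D strain and 619 ± 14 CPM in the npl3-F245I strain, against 405 ± 4.71 CPM in NPL3 (SD, n = 3), with no overlap between mutant and NPL3 libraries. Genes were called at an adjusted p of 0.05 in the quasi-likelihood F-test of edgeR, with Benjamini-Hochberg adjustment over all 6518 features. In npl3-F162Y, 33 of the 41 rose and 1 fell, where 29.8% of all features rose and 38.6% fell. In npl3-P196D-A197D, 26 rose and 3 fell, against 24.1% and 31.7% of all features. In npl3-F245I, 33 rose and 2 fell, against 24.5% and 33.3%. The median log2 change over the 41 genes was 0.74 in npl3-F162Y, 0.50 in npl3-P196D-A197D and 0.61 in npl3-F245I, and over all features -0.04 in each. The genes are low, and 39 of them averaged under 50 CPM. Of these 39, 82.1% rose in npl3-F162Y, 64.1% in npl3-P196D-A197D and 82.1% in npl3-F245I, against 34.4%, 24.6% and 27.8% of all 2229 mRNA features under 50 CPM in these alleles. The 3 mutants share the same NPL3 libraries, so the 3 comparisons are not independent. In bulk RNA, more cells that express a gene and more RNA per expressing cell cannot be told apart.

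The set of genes that rose in all 3 mutants at 30 °C held 26 of the 41, and 17.1% of all features. It contained IME2 and NDT80, 11 of the 19 early genes and 13 of the 18 middle or late genes. SPS4 fell in all 3, as did 23.1% of all features, and UME6, SMK1 and SSP1 passed the test in none. By phase, 16 of 19 early genes rose in npl3-F162Y, 11 in npl3-P196D-A197D and 16 in npl3-F245I. Of the 18 middle or late genes 14, 13 and 14 rose in these alleles, against 29.8%, 24.1% and 24.5% of all features. At least a 2-fold rise was seen for 14 genes in npl3-F162Y, 4 in npl3-P196D-A197D and 7 in npl3-F245I, against 6.51%, 3.28% and 4.76% of all features.

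**Figure D2:**
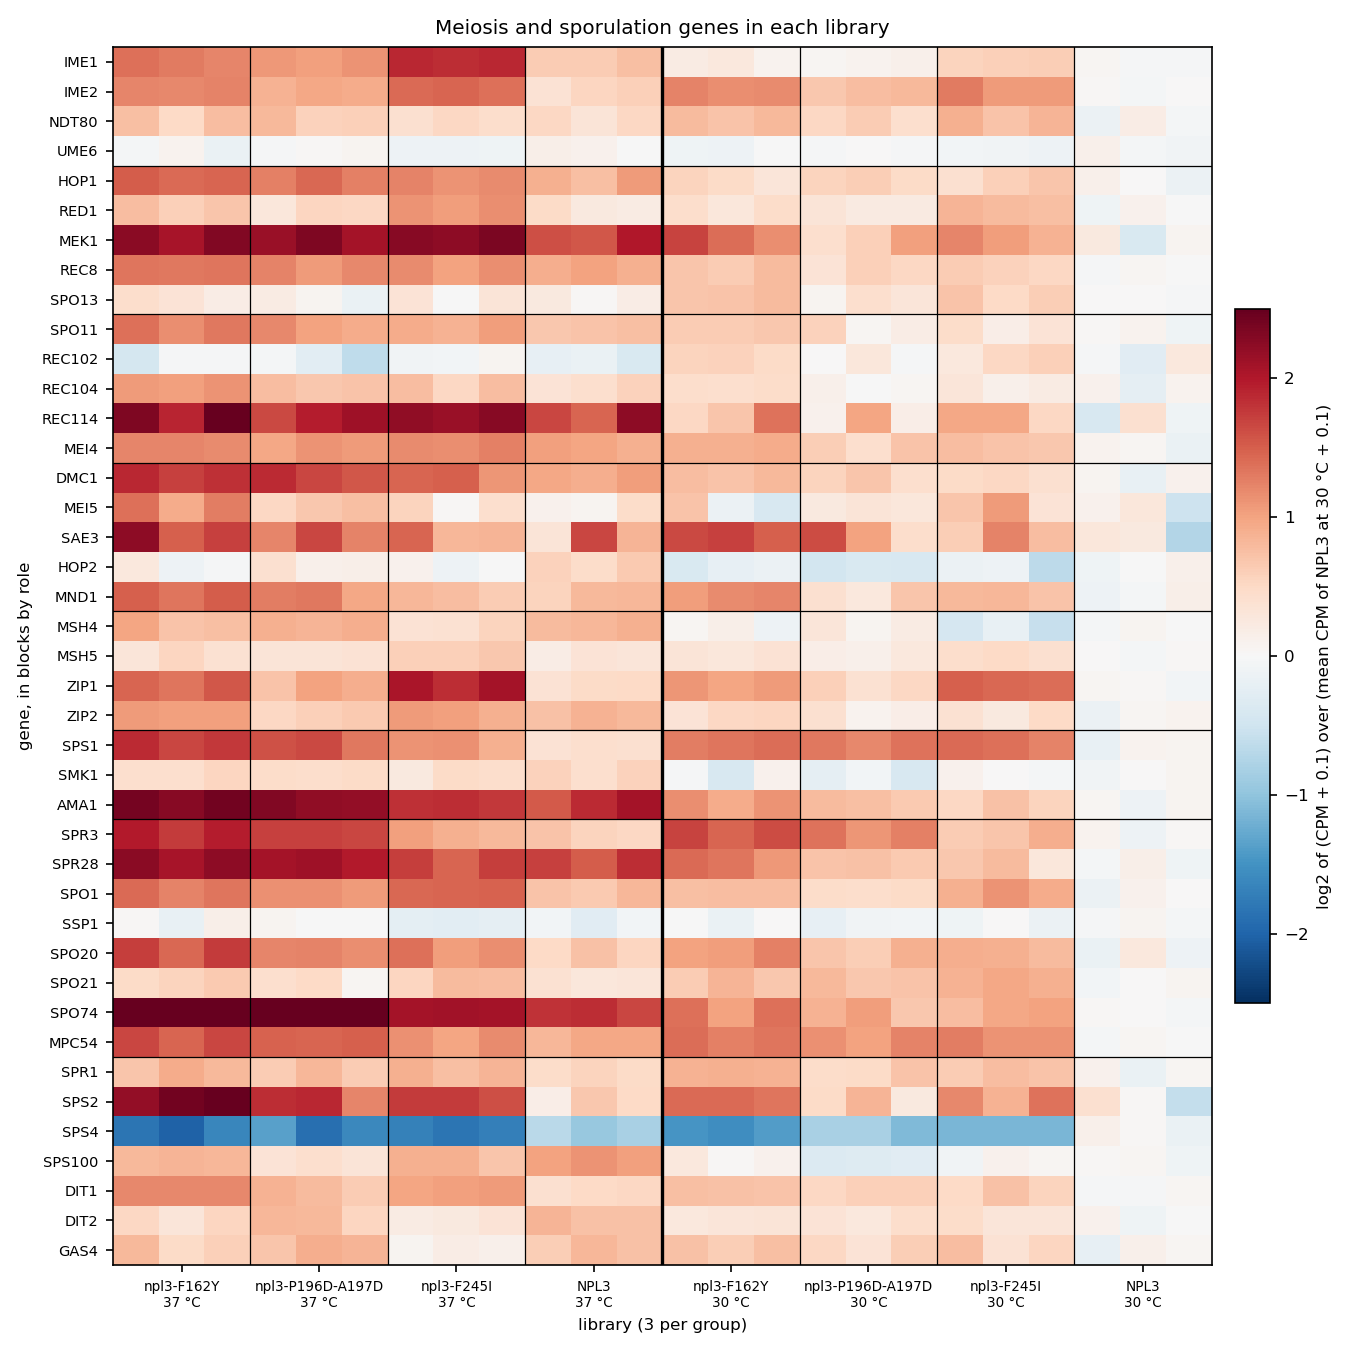
Level of each gene (down the page, in blocks by role) in each of the 24 libraries (across), as log2 of CPM over the mean CPM of NPL3 at 30 °C, with 0.1 CPM added to both; red is higher and blue lower, and values beyond 2.5 take the end colour. Most genes are red in the mutants at 30 °C and in all strains at 37 °C, while SPS4 is blue in the mutants and in NPL3 at 37 °C.

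Among the regulators, IME2, which encodes the kinase that carries the signal from Ime1 to the middle genes, changed most. IME2 (YJL106W, chrX:221390-223327, plus strand) had 38.1, 36.3 and 36.6 CPM in the npl3-F162Y libraries, 25.7, 27.6 and 28.3 CPM in the npl3-P196D-A197D libraries and 39.5, 33.8 and 33.7 CPM in the npl3-F245I libraries, against 16.5, 15.5 and 16.3 CPM in NPL3 at 30 °C. All mutant libraries lay above all NPL3 libraries, and the npl3-P196D-A197D libraries lay below those of the other alleles. The log2 changes (± SE, edgeR) were 1.20 ± 0.07 in npl3-F162Y (adjusted p = 1.48e-13), 0.76 ± 0.07 in npl3-P196D-A197D (adjusted p = 3.52e-09) and 1.14 ± 0.07 in npl3-F245I (adjusted p = 5.86e-13). NDT80 (YHR124W, chrVIII:356561-358444, plus strand), the activator of middle genes, rose at a lower level, with 7.52, 7.13 and 7.57 CPM in the npl3-F162Y libraries, 6.22, 6.77 and 5.8 CPM in the npl3-P196D-A197D libraries and 8.08, 7.16 and 7.79 CPM in the npl3-F245I libraries, against 3.86, 4.88 and 4.15 CPM in NPL3. Its mutant libraries all lay above the NPL3 libraries, and the log2 changes were 0.80 in npl3-F162Y, 0.56 in npl3-P196D-A197D and 0.84 in npl3-F245I.

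IME1 (YJR094C, chrX:604569-605651, minus strand), the master activator of meiotic entry, had smaller log2 changes than its downstream kinase. It had 16.9, 17.7 and 15.5 CPM in the npl3-F162Y libraries, 15.1, 15.4 and 15.8 CPM in the npl3-P196D-A197D libraries and 21.5, 22.2 and 22.4 CPM in the npl3-F245I libraries, against 15.1, 14.3 and 14.4 CPM in NPL3 at 30 °C. The npl3-F245I libraries stood clear of NPL3, those of npl3-F162Y lay just above it, and those of npl3-P196D-A197D overlapped it. The log2 change was 0.59 ± 0.06 in npl3-F245I (edgeR, adjusted p = 6.78e-09) and 0.19 ± 0.06 in npl3-F162Y (edgeR, adjusted p = 0.00725), and the interval in npl3-P196D-A197D was -0.05 to 0.21. The call in npl3-F162Y was lost without its replicate 2 (adjusted p = 0.0525).

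UME6 (YDR207C, chrIV:865012-867522, minus strand), which encodes the URS1-binding repressor and Ime1 partner, was near the NPL3 level, with 49.4, 48.7 and 52.6 CPM in the npl3-F162Y libraries, 51.7, 53.1 and 51.9 CPM in the npl3-P196D-A197D libraries and 50.8, 49.7 and 48.5 CPM in the npl3-F245I libraries, against 57.7, 51.3 and 50.2 CPM in NPL3. Mutant and NPL3 libraries overlapped in each comparison. The intervals of the log2 change were -0.20 to 0.04 in npl3-F162Y, -0.15 to 0.10 in npl3-P196D-A197D and -0.22 to 0.02 in npl3-F245I.

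IRT1, the noncoding RNA whose gene ends 284 bases upstream of IME1 on the same strand, rose in all 3 mutants. It averaged 41.3 ± 2.02 CPM in the npl3-F162Y strain, 39.4 ± 1.58 CPM in the npl3-P196D-A197D strain and 42.4 ± 0.494 CPM in the npl3-F245I strain, against 26.7 ± 1.04 CPM in NPL3 at 30 °C (SD, n = 3). The log2 changes of IRT1 were 0.63 in npl3-F162Y, 0.56 in npl3-P196D-A197D and 0.67 in npl3-F245I, and all passed the test. RME1, which encodes the haploid repressor of IME1, fell in all 3 at 30 °C, with log2 changes of -0.46 in npl3-F162Y, -0.15 in npl3-P196D-A197D and -0.26 in npl3-F245I.

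**Figure D3:**
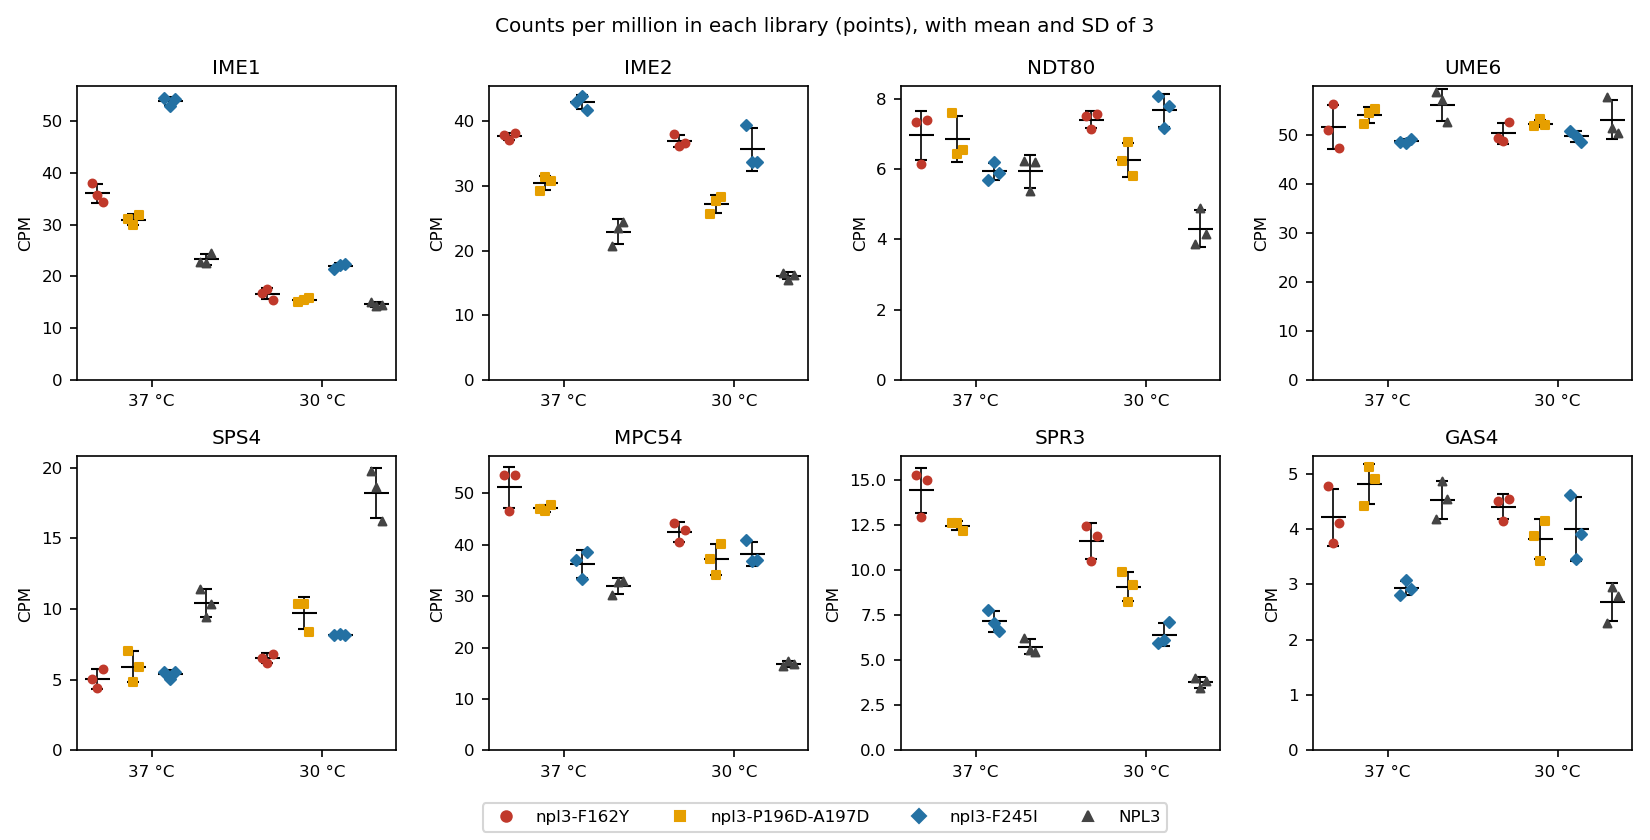
CPM in each library (points) with the mean and SD of 3 (bars) for 8 genes, with the mutants left of NPL3 and 37 °C left of 30 °C. IME2 is higher in every mutant library than in the NPL3 libraries of its temperature, and SPS4 is lower in the mutants. UME6 overlaps NPL3 except in npl3-F245I at 37 °C, where it is lower. GAS4 of npl3-F245I lies above NPL3 at 30 °C and below it at 37 °C.

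The genes of the meiotic chromosome axis rose together. HOP1 and RED1 (axis proteins), MEK1 (the axis kinase that steers repair to the homolog), REC8 (the meiotic cohesin) and SPO13 (which holds sister kinetochores together in the first division) all passed the test in npl3-F162Y and npl3-F245I, and all but SPO13 in npl3-P196D-A197D. MEK1 (YOR351C, chrXV:995018-996511, minus strand) had the largest change of these in npl3-F162Y, at a very low level: 61, 41 and 34 counts in npl3-F162Y, 13, 21 and 25 counts in npl3-P196D-A197D and 36, 36 and 34 counts in npl3-F245I, against 23, 10 and 17 counts in NPL3. In CPM these were 2.24, 1.83 and 1.53 CPM in the npl3-F162Y libraries, 0.869, 1 and 1.38 CPM in the npl3-P196D-A197D libraries and 1.6, 1.4 and 1.23 CPM in the npl3-F245I libraries, against 0.766, 0.46 and 0.66 CPM in NPL3. The mutant libraries all lay above NPL3, with fitted folds of 2.92 in npl3-F162Y, 1.69 in npl3-P196D-A197D and 2.17 in npl3-F245I. RED1 had 39.1, 35.4 and 39.7 CPM in the npl3-F162Y libraries, 36, 33.7 and 34 CPM in the npl3-P196D-A197D libraries and 52.4, 50.4 and 49.1 CPM in the npl3-F245I libraries, against 27, 31.4 and 28.6 CPM in NPL3. Its npl3-F245I libraries were the highest, and the log2 changes were 0.40 in npl3-F162Y, 0.26 in npl3-P196D-A197D and 0.81 in npl3-F245I.

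Of the 5 genes for double-strand break formation, 5 rose in npl3-F162Y, 2 in npl3-P196D-A197D and 4 in npl3-F245I. Of all features 29.8%, 24.1% and 24.5% rose in these alleles. SPO11, the break-forming enzyme, and MEI4 rose in all 3, with log2 changes for MEI4 of 0.91 in npl3-F162Y, 0.59 in npl3-P196D-A197D and 0.73 in npl3-F245I. REC102 rose in npl3-F162Y (log2 0.54) and npl3-F245I (log2 0.47), and the interval in npl3-P196D-A197D was -0.23 to 0.42. REC104 passed in npl3-F162Y (log2 0.44), and its intervals were -0.16 to 0.24 in npl3-P196D-A197D and 0.02 to 0.40 in npl3-F245I. REC114 was near the counting limit, with 18, 17 and 28 counts in npl3-F162Y, 7, 20 and 9 counts in npl3-P196D-A197D and 21, 24 and 18 counts in npl3-F245I, against 9, 13 and 10 counts in NPL3; it rose in npl3-F162Y and npl3-F245I, and in npl3-P196D-A197D its interval was -0.22 to 1.55.

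The strand exchange genes moved in both directions. DMC1, the meiotic recombinase, and MND1, which assists it, rose in all 3, with log2 changes for MND1 of 1.17 in npl3-F162Y, 0.48 in npl3-P196D-A197D and 0.80 in npl3-F245I. SAE3, part of the Mei5-Sae3 accessory complex of Dmc1, had the largest fitted change in npl3-F162Y, from few reads: 28, 24 and 20 counts in npl3-F162Y, 15, 13 and 7 counts in npl3-P196D-A197D and 10, 19 and 14 counts in npl3-F245I, against 10, 7 and 3 counts in NPL3. In CPM the libraries were 1.03, 1.07 and 0.901 CPM in the npl3-F162Y libraries, 1, 0.62 and 0.386 CPM in the npl3-P196D-A197D libraries and 0.444, 0.739 and 0.507 CPM in the npl3-F245I libraries, against 0.333, 0.322 and 0.116 CPM in NPL3. Mutant and NPL3 libraries did not overlap in CPM, and the fitted folds were 3.83 in npl3-F162Y, 2.5 in npl3-P196D-A197D and 2.17 in npl3-F245I. The SAE3 call in npl3-P196D-A197D was lost without NPL3 replicate 3 (adjusted p = 0.112) and without its own replicate 1 (adjusted p = 0.146). MEI5, the partner gene, had 11, 4 and 3 counts in npl3-F162Y, 4, 6 and 5 counts in npl3-P196D-A197D and 9, 14 and 8 counts in npl3-F245I, against 7, 6 and 3 counts in NPL3, and passed the test in npl3-F245I, with intervals of -0.66 to 1.19 in npl3-F162Y and -0.55 to 1.38 in npl3-P196D-A197D. HOP2, whose product works with Mnd1, went the other way from MND1: it had 3.6, 4.1 and 4.28 CPM in the npl3-F162Y libraries, 3.41, 3.62 and 3.59 CPM in the npl3-P196D-A197D libraries and 4.26, 4.36 and 2.97 CPM in the npl3-F245I libraries, against 4.36, 4.7 and 5.16 CPM in NPL3. It fell in npl3-P196D-A197D with a log2 change of -0.42 ± 0.15 (edgeR, adjusted p = 0.0225), lost without NPL3 replicate 3 or its own replicate 1 (adjusted p = 0.0861 and 0.0589), and its intervals were -0.54 to 0.04 in npl3-F162Y and -0.59 to -0.01 in npl3-F245I.

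Among the crossover and synapsis genes, ZIP1 changed most. ZIP1 (YDR285W, chrIV:1032436-1035063, plus strand), the central element of the synaptonemal complex, had 60, 55.6 and 59 CPM in the npl3-F162Y libraries, 42.2, 36.4 and 39.9 CPM in the npl3-P196D-A197D libraries and 78.8, 76.4 and 73.9 CPM in the npl3-F245I libraries, against 28.8, 28.5 and 26.7 CPM in NPL3. No mutant library reached down to NPL3, and the alleles were ordered npl3-F245I, npl3-F162Y, npl3-P196D-A197D with no overlap. Its log2 changes (edgeR) were 1.06 ± 0.08 in npl3-F162Y (adjusted p = 1.97e-11), 0.49 ± 0.08 in npl3-P196D-A197D (adjusted p = 1.81e-05) and 1.45 ± 0.08 in npl3-F245I (adjusted p = 1.07e-13). MSH5 rose slightly in all 3, with log2 changes of 0.32 in npl3-F162Y, 0.18 in npl3-P196D-A197D and 0.45 in npl3-F245I. MSH4, which encodes the partner of Msh5 in crossover formation, did not follow it: it had 7.71, 8.29 and 6.8 CPM in the npl3-F162Y libraries, 9.22, 7.91 and 8.67 CPM in the npl3-P196D-A197D libraries and 5.59, 6.53 and 4.96 CPM in the npl3-F245I libraries, against 7.19, 7.83 and 7.45 CPM in NPL3. MSH4 fell in npl3-F245I by 1.31-fold (edgeR, adjusted p = 0.0029) and did not pass in the other alleles. ZIP2 rose in npl3-F162Y and npl3-F245I; 90.1% of it lies under the antisense RNA RME3, which did not pass in these 2 mutants.

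Of the meiotic kinases and the APC activator, SPS1 and AMA1 rose in all 3 and SMK1 in none. SPS1, a Ste20-family kinase of spore formation, had 17, 17.6 and 18.4 CPM in the npl3-F162Y libraries, 17.4, 16.2 and 17.9 CPM in the npl3-P196D-A197D libraries and 18.7, 18.2 and 16.6 CPM in the npl3-F245I libraries, against 6.06, 7.41 and 7.29 CPM in NPL3. The mutants overlapped each other and none overlapped NPL3, with log2 changes of 1.36 ± 0.10 in npl3-F162Y (adjusted p = 1.96e-11), 1.32 ± 0.10 in npl3-P196D-A197D (adjusted p = 1.89e-10) and 1.37 ± 0.10 in npl3-F245I (adjusted p = 2.89e-11) under edgeR's test. AMA1, the meiosis-specific activator of the anaphase-promoting complex, had log2 changes of 1.09 in npl3-F162Y, 0.74 in npl3-P196D-A197D and 0.61 in npl3-F245I. SMK1, the MAP kinase of spore wall assembly, had 2.35 ± 0.427 CPM in the npl3-F162Y strain, 2.13 ± 0.253 CPM in the npl3-P196D-A197D strain and 2.55 ± 0.141 CPM in the npl3-F245I strain, against 2.5 ± 0.156 CPM in NPL3.

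Of the 8 septin and prospore membrane genes, 7 rose in each mutant. Of all features 29.8% rose in npl3-F162Y, 24.1% in npl3-P196D-A197D and 24.5% in npl3-F245I. SPR3 (YGR059W, chrVII:607563-609101, plus strand), a sporulation septin, had 12.5, 10.5 and 11.9 CPM in the npl3-F162Y libraries, 9.89, 8.24 and 9.16 CPM in the npl3-P196D-A197D libraries and 5.95, 6.15 and 7.14 CPM in the npl3-F245I libraries, against 4.03, 3.45 and 3.84 CPM in NPL3. All mutant libraries lay above NPL3 and those of npl3-F245I lay below those of the other alleles. The log2 changes of SPR3 (edgeR) were 1.62 ± 0.11 in npl3-F162Y (adjusted p = 3.06e-12), 1.25 ± 0.11 in npl3-P196D-A197D (adjusted p = 2.26e-09) and 0.76 ± 0.11 in npl3-F245I (adjusted p = 3.45e-06). SPR28, the other septin of the set, had 9.91, 9.45 and 7.84 CPM in the npl3-F162Y libraries, 6.08, 6.2 and 5.85 CPM in the npl3-P196D-A197D libraries and 5.9, 6.42 and 4.49 CPM in the npl3-F245I libraries, against 3.53, 4.1 and 3.38 CPM in NPL3. Here npl3-F162Y was highest, with log2 changes of 1.32 in npl3-F162Y, 0.73 in npl3-P196D-A197D and 0.61 in npl3-F245I. MPC54, SPO21 and SPO74 encode the meiotic outer plaque of the spindle pole body, from which the prospore membrane grows. MPC54 (YOR177C, chrXV:665785-667179, minus strand) had 44.3, 40.5 and 42.9 CPM in the npl3-F162Y libraries, 37.2, 34.1 and 40.2 CPM in the npl3-P196D-A197D libraries and 40.9, 36.8 and 37 CPM in the npl3-F245I libraries, against 16.4, 17.4 and 16.7 CPM in NPL3, with no overlap and log2 changes of 1.34 in npl3-F162Y, 1.14 in npl3-P196D-A197D and 1.18 in npl3-F245I. SPO21 had log2 changes of 0.73 in npl3-F162Y, 0.74 in npl3-P196D-A197D and 0.92 in npl3-F245I, and SPO74 of 1.30 in npl3-F162Y, 0.90 in npl3-P196D-A197D and 0.94 in npl3-F245I. SPO1, a phospholipase-like gene, and SPO20, a SNARE of the prospore membrane, also rose in all 3, while SSP1, a coat protein of the membrane's leading edge, had 19.1 ± 1.22 CPM in the npl3-F162Y strain, 18.2 ± 0.922 CPM in the npl3-P196D-A197D strain and 18.7 ± 1.16 CPM in the npl3-F245I strain, against 19.8 ± 0.848 CPM in NPL3.

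Among the spore wall and late genes, SPS4 fell in all 3 mutants. SPS4 (YOR313C, chrXV:901858-902874, minus strand) had 6.53, 6.15 and 6.85 CPM in the npl3-F162Y libraries, 10.4, 10.3 and 8.39 CPM in the npl3-P196D-A197D libraries and 8.16, 8.21 and 8.15 CPM in the npl3-F245I libraries, against 19.8, 18.6 and 16.3 CPM in NPL3, and every mutant library lay below every NPL3 library. It fell by 2.8-fold in npl3-F162Y, 1.88-fold in npl3-P196D-A197D and 2.23-fold in npl3-F245I (edgeR, adjusted p = 8.90e-11, 5.57e-07 and 6.64e-09). SPS4 was the second most abundant of the 41 per kilobase in NPL3 cells. SPS2, a spore wall gene that lies 262 bases downstream of SPS1, was the lowest of the 41 per kilobase in NPL3 cells. It had 34, 28 and 26 counts in npl3-F162Y, 9, 17 and 9 counts in npl3-P196D-A197D and 24, 21 and 33 counts in npl3-F245I, against 17, 9 and 6 counts in NPL3. SPS2 rose in npl3-F162Y with a fitted fold of 2.95 and in npl3-F245I with 2.48, and its interval in npl3-P196D-A197D was -0.06 to 1.35 on the log2 scale. SPS100, a spore wall gene, had 6.2, 5.22 and 5.5 CPM in the npl3-F162Y libraries, 4.01, 4.1 and 4.2 CPM in the npl3-P196D-A197D libraries and 4.84, 5.52 and 5.33 CPM in the npl3-F245I libraries, against 5.26, 5.34 and 4.77 CPM in NPL3; it fell in npl3-P196D-A197D (log2 -0.32) and overlapped NPL3 in the other alleles. The dityrosine genes DIT1 and DIT2, SPR1 (a sporulation-specific glucanase) and GAS4 (a glucan-remodelling enzyme of the spore wall) rose in all 3, DIT1 with log2 changes of 0.74 in npl3-F162Y, 0.58 in npl3-P196D-A197D and 0.61 in npl3-F245I and GAS4 with 0.73 in npl3-F162Y, 0.51 in npl3-P196D-A197D and 0.58 in npl3-F245I.

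**Figure D4:**
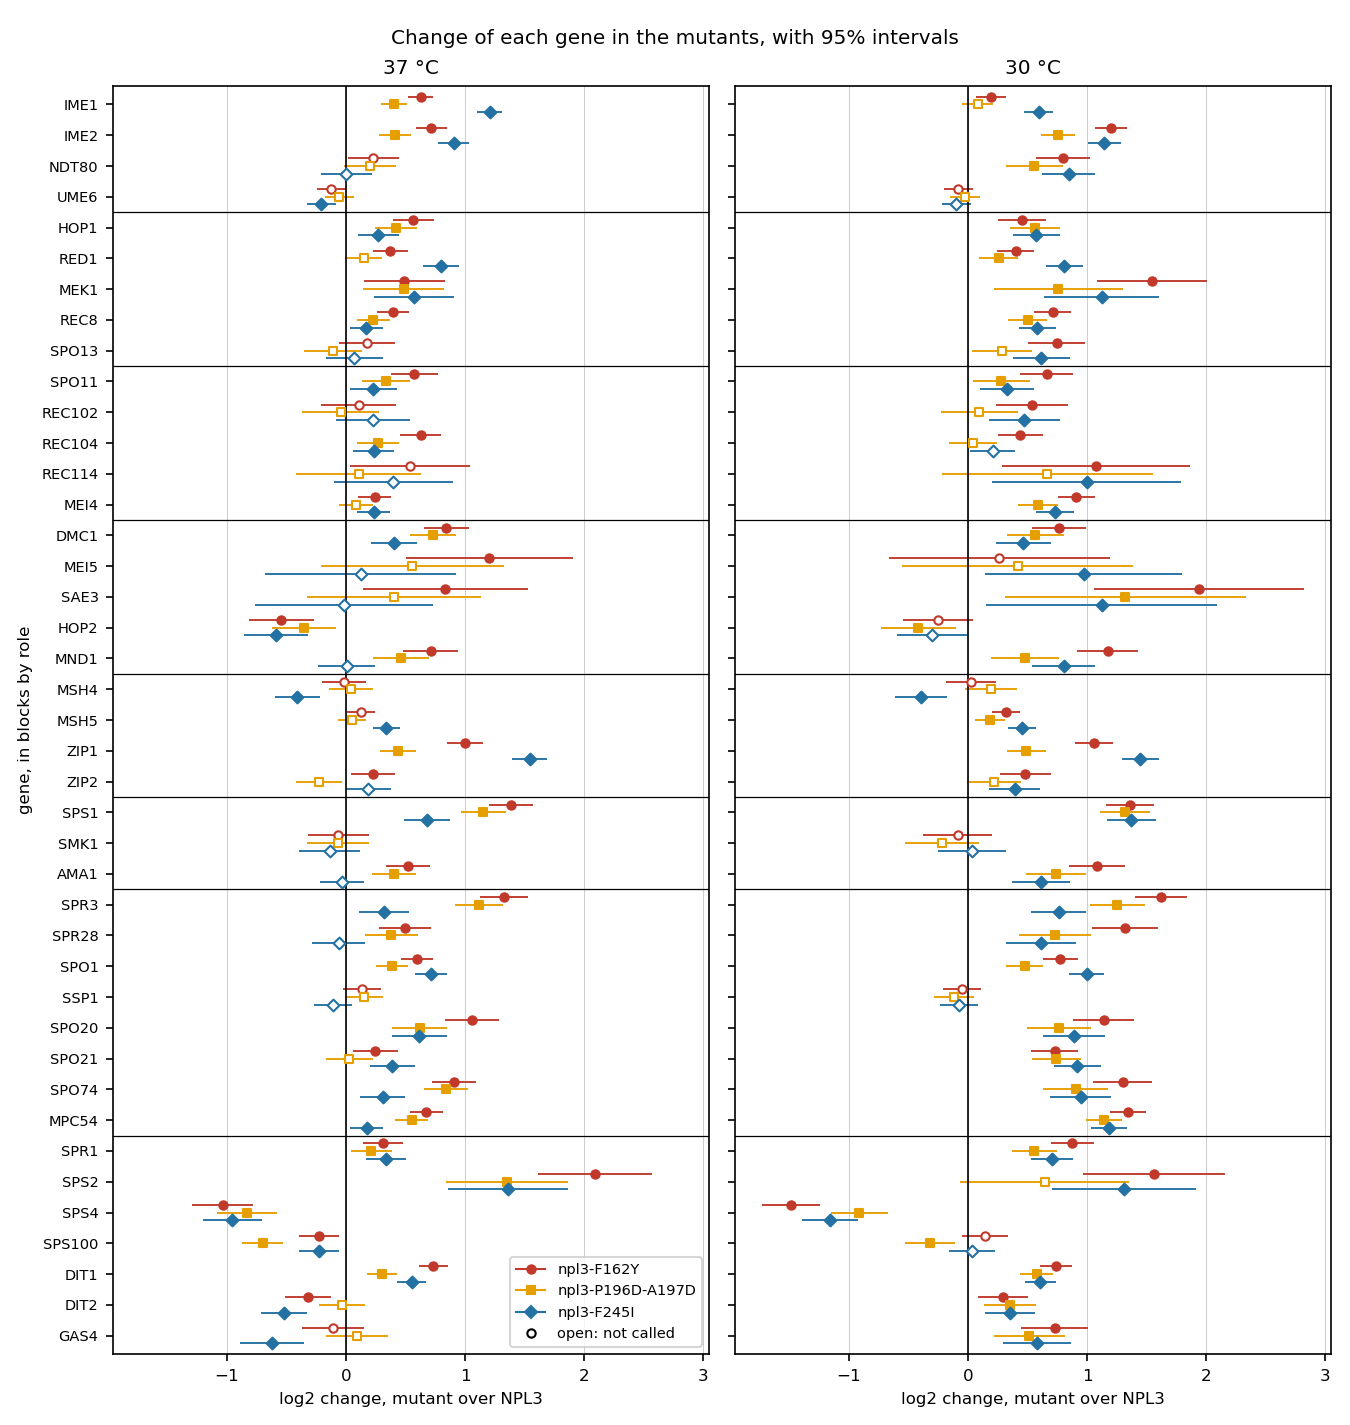
Log2 change of each gene in each mutant relative to NPL3 at 37 °C (left) and 30 °C (right), with 95% intervals; filled symbols are genes called by edgeR at an adjusted p of 0.05. At 30 °C nearly all filled symbols lie right of 0 except SPS4, HOP2, MSH4 and SPS100, and at 37 °C more filled symbols lie left of 0.

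At 37 °C the mutants still stood above NPL3 in summed level, at 815 ± 26.9 CPM in the npl3-F162Y strain, 712 ± 14 CPM in the npl3-P196D-A197D strain and 796 ± 20.9 CPM in the npl3-F245I strain, against 588 ± 10.6 CPM in NPL3 (SD, n = 3). Of the 41 genes 27 rose and 4 fell in npl3-F162Y, where 28% of all features rose and 30.8% fell. In npl3-P196D-A197D 21 rose and 3 fell, against 21.3% and 22.4%, and in npl3-F245I 22 rose and 7 fell, against 24% and 26.5%. Median log2 changes over the 41 genes were 0.49, 0.27 and 0.23 for these alleles, against -0.01, -0.02 and -0.02 over all features. Of the 39 genes under 50 CPM, 66.7% rose in npl3-F162Y, 51.3% in npl3-P196D-A197D and 53.8% in npl3-F245I, against 30.7%, 22.4% and 21.9% of all mRNA features in that range. In all, 18 genes rose in all 3 mutants at 37 °C, where 13.2% of all features did, and HOP2, SPS4 and SPS100 fell in all 3, as did 13.7% of all features. In all 6 comparisons of a mutant with NPL3, 15 of the genes rose, against 9.65% of all features.

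At 37 °C IME1 rose in all 3 mutants. It had 38, 35.8 and 34.3 CPM in the npl3-F162Y libraries, 31.1, 29.9 and 32 CPM in the npl3-P196D-A197D libraries and 54.5, 52.9 and 54.4 CPM in the npl3-F245I libraries, against 22.8, 22.7 and 24.6 CPM in NPL3, and each mutant lay above NPL3 with no overlap. The log2 changes (edgeR) were 0.63 ± 0.05 in npl3-F162Y (adjusted p = 5.20e-10), 0.41 ± 0.05 in npl3-P196D-A197D (adjusted p = 1.66e-06) and 1.21 ± 0.05 in npl3-F245I (adjusted p = 4.86e-15). IRT1 averaged 76.2 ± 4.37 CPM in the npl3-F162Y strain, 62 ± 4.09 CPM in the npl3-P196D-A197D strain and 47.2 ± 2.06 CPM in the npl3-F245I strain, against 36 ± 2.42 CPM in NPL3, so that npl3-F245I had the highest IME1 and the lowest IRT1 of the mutants. IME2 had 37.9, 37.1 and 38.2 CPM in the npl3-F162Y libraries, 29.3, 31.5 and 30.8 CPM in the npl3-P196D-A197D libraries and 43, 44 and 41.8 CPM in the npl3-F245I libraries, against 20.7, 23.5 and 24.5 CPM in NPL3, again with no overlap and with log2 changes of 0.72 in npl3-F162Y, 0.41 in npl3-P196D-A197D and 0.90 in npl3-F245I. NDT80 no longer passed: it had 7.34, 6.15 and 7.39 CPM in the npl3-F162Y libraries, 7.61, 6.43 and 6.53 CPM in the npl3-P196D-A197D libraries and 5.7, 6.2 and 5.89 CPM in the npl3-F245I libraries, against 6.23, 5.38 and 6.19 CPM in NPL3, with intervals of 0.02 to 0.44, -0.01 to 0.42 and -0.21 to 0.22 in npl3-F162Y, npl3-P196D-A197D and npl3-F245I. UME6 had 51, 56.1 and 47.3 CPM in the npl3-F162Y libraries, 52.2, 54.5 and 55.3 CPM in the npl3-P196D-A197D libraries and 48.5, 48.3 and 49.1 CPM in the npl3-F245I libraries, against 58.7, 57 and 52.5 CPM in NPL3; it fell slightly in npl3-F245I (log2 -0.20; edgeR, adjusted p = 0.00466).

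Other large changes at 37 °C were those of ZIP1, SPS1, SPR3, SPS2, SPO74 and MEI5. ZIP1 had 76.8, 70.5 and 82.2 CPM in the npl3-F162Y libraries, 46, 56 and 52.9 CPM in the npl3-P196D-A197D libraries and 115, 101 and 119.5 CPM in the npl3-F245I libraries, against 36.1, 39.2 and 39.5 CPM in NPL3, in the same order of alleles as at 30 °C. SPS1 had 25.4, 22.1 and 23.8 CPM in the npl3-F162Y libraries, 21.1, 22 and 17.4 CPM in the npl3-P196D-A197D libraries and 15.2, 15.4 and 12.9 CPM in the npl3-F245I libraries, against 8.9, 9.24 and 9.15 CPM in NPL3, and SPR3 had 15.3, 13 and 15 CPM in the npl3-F162Y libraries, 12.6, 12.6 and 12.2 CPM in the npl3-P196D-A197D libraries and 7.78, 7.06 and 6.65 CPM in the npl3-F245I libraries, against 6.23, 5.57 and 5.48 CPM in NPL3. In both genes npl3-F245I lay between NPL3 and the other mutants. SPO74 showed the same order, with 19.4, 17.2 and 20.5 CPM in the npl3-F162Y libraries, 18.2, 18.9 and 17.3 CPM in the npl3-P196D-A197D libraries and 12.5, 12.6 and 12.5 CPM in the npl3-F245I libraries, against 10.4, 10.7 and 9.35 CPM in NPL3. SPS2 rose from few reads, with 53, 74 and 77 counts in npl3-F162Y, 35, 63 and 23 counts in npl3-P196D-A197D and 45, 60 and 32 counts in npl3-F245I, against 12, 22 and 19 counts in NPL3 and fitted folds of 4.26 in npl3-F162Y, 2.56 in npl3-P196D-A197D and 2.57 in npl3-F245I. MEI5 passed in npl3-F162Y, on 17, 14 and 17 counts, against 6, 7 and 10 counts in NPL3.

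SPS4 fell at 37 °C as well, with 5.06, 4.38 and 5.79 CPM in the npl3-F162Y libraries, 7.07, 4.83 and 5.88 CPM in the npl3-P196D-A197D libraries and 5.56, 5.05 and 5.53 CPM in the npl3-F245I libraries, against 11.4, 9.43 and 10.3 CPM in NPL3 and log2 changes of -1.03 in npl3-F162Y, -0.83 in npl3-P196D-A197D and -0.95 in npl3-F245I. HOP2 now passed in all 3, at 5.68, 4.31 and 4.65 CPM in the npl3-F162Y libraries, 6.33, 5.17 and 5.27 CPM in the npl3-P196D-A197D libraries and 5.14, 4.3 and 4.72 CPM in the npl3-F245I libraries, against 7.12, 6.57 and 7.54 CPM in NPL3, with log2 changes of -0.54 in npl3-F162Y, -0.35 in npl3-P196D-A197D and -0.59 in npl3-F245I. SPS100 had 9.13, 9.28 and 9.19 CPM in the npl3-F162Y libraries, 6.53, 6.88 and 6.39 CPM in the npl3-P196D-A197D libraries and 9.61, 9.57 and 8.32 CPM in the npl3-F245I libraries, against 10.4, 11.3 and 10.5 CPM in NPL3, lowest in npl3-P196D-A197D (log2 -0.70 ± 0.08; edgeR, adjusted p = 4.40e-07). SPS100 is covered over 96.4% of its length by an antisense transcript, SUT169, that was not analysed here. Of the 41 genes, GAS4 and DIT2 passed in both directions over the 6 comparisons. GAS4 rose in each mutant at 30 °C, but at 37 °C it had 4.77, 3.75 and 4.12 CPM in the npl3-F162Y libraries, 4.42, 5.11 and 4.9 CPM in the npl3-P196D-A197D libraries and 2.81, 3.07 and 2.92 CPM in the npl3-F245I libraries, against 4.18, 4.86 and 4.54 CPM in NPL3, and fell in npl3-F245I (log2 -0.62 ± 0.13; edgeR, adjusted p = 3.30e-04). DIT2 had log2 changes of -0.32 in npl3-F162Y, -0.03 in npl3-P196D-A197D and -0.52 in npl3-F245I at 37 °C, and passed as a fall in npl3-F162Y and npl3-F245I.

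One hour at 37 °C raised most of these genes in NPL3 cells themselves. Their summed level was 588 ± 10.6 CPM at 37 °C, against 405 ± 4.71 CPM at 30 °C. Of the 41 genes 34 rose and 1 fell, where 34.1% of all features rose and 32.9% fell, with a median log2 change of 0.62. Of the 39 genes under 50 CPM 84.6% rose, against 45.5% of all mRNA features in that range; the shares were 66.7% against 43.6% in npl3-F162Y, 76.9% against 43.9% in npl3-P196D-A197D and 59% against 43% in npl3-F245I. Rises stood at 27 and falls at 3 in npl3-F162Y (34.4% and 27% of all features), at 31 and 3 in npl3-P196D-A197D (33.4% and 28.5%), and at 24 and 7 in npl3-F245I (37.8% and 30.8%). With the shift, 21 genes rose in all 4 strains, against 22.6% of all features, and SPS4 fell in all 4, as did 19.6% of all features.

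The largest rises in NPL3 cells were those of REC114, AMA1 and MEK1. REC114, which helps Rec102 and Spo11 make breaks, had 41, 42 and 74 counts at 37 °C, against 9, 13 and 10 counts at 30 °C, a fitted fold of 4.25. MEK1 had 55, 63 and 87 counts at 37 °C, against 23, 10 and 17 counts at 30 °C, a fitted fold of 3.6. Both pairs of groups stood apart with no overlap, although their 30 °C libraries held at most 23 counts. AMA1 was better counted, at 19.4, 24.6 and 28.4 CPM at 37 °C, against 6.89, 6.12 and 6.98 CPM at 30 °C, a log2 change of 1.85 ± 0.11 (edgeR, adjusted p = 3.04e-13). SPS4 had 11.4, 9.43 and 10.3 CPM at 37 °C, against 19.8, 18.6 and 16.3 CPM at 30 °C, with no overlap and a log2 change of -0.81 ± 0.11. The regulators IME1, IME2 and NDT80 rose with the shift in NPL3 cells, by 0.68, 0.51 and 0.47 on the log2 scale, and UME6 overlapped between the temperatures (interval -0.04 to 0.20).

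**Figure D5:**
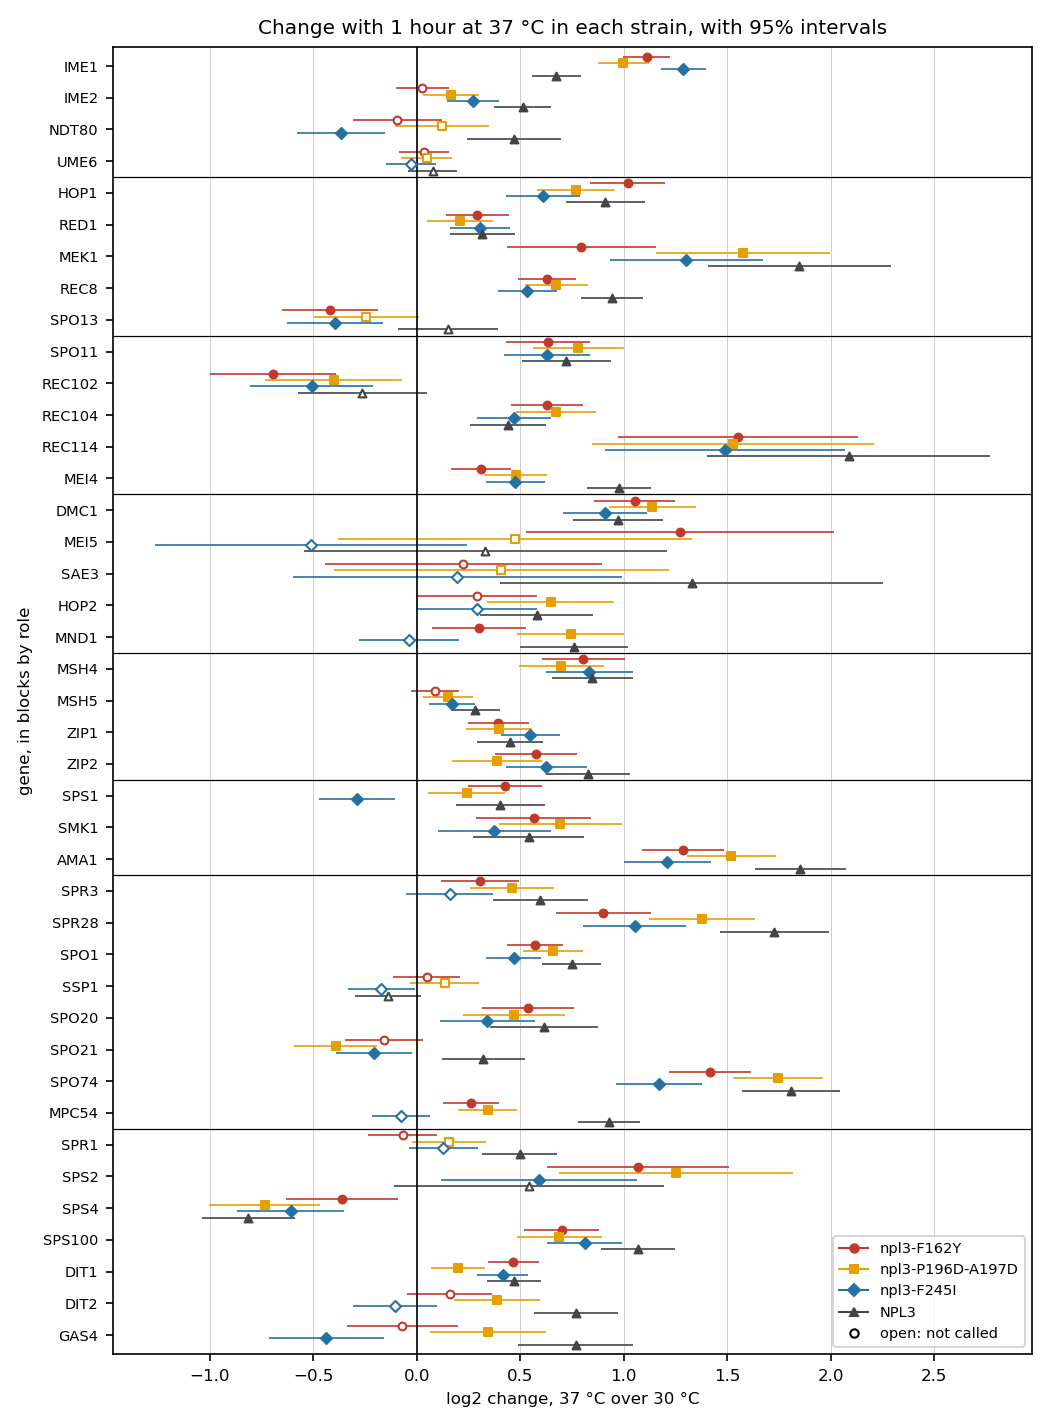
Log2 change of each gene at 37 °C relative to 30 °C in each of the 4 strains, with 95% intervals; filled symbols are genes called by edgeR at an adjusted p of 0.05. For IME1 the 3 mutants lie right of NPL3, and SPS4 is left of 0 in all strains. NPL3 has the highest value of the 4 strains for 28 of the 41 genes. How often NPL3 has the highest value over all features was not counted. The NPL3 response uses the same NPL3 libraries at 30 °C as the comparisons of mutants and NPL3 at 30 °C.

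The rise with 37 °C was smaller in the mutants than in NPL3 for part of the genes, by the interaction test of the 2 responses. These tests share the NPL3 libraries of both temperatures with each other and with the comparisons of mutants and NPL3 above. Low values in the NPL3 libraries before the shift would raise both the mutants' changes there and the NPL3 response. The lower responses are therefore not independent of the rises in the mutants before the shift, and the part of this sharing was not tested. In npl3-F162Y the response was lower than in NPL3 for 14 genes and higher for 1, where 8.68% of all features were lower and 11.8% higher. In npl3-P196D-A197D it was lower for 4 and higher for 1 (5.08% and 5.57% of all features), and in npl3-F245I lower for 17 and higher for 1 (12.4% and 16.5%). The count in npl3-P196D-A197D was 3 in a fit of the compared groups alone and 8 without NPL3 37 °C replicate 1. The gene with the higher response was IME1 in each mutant: its log2 response was 1.11 in npl3-F162Y, 1.00 in npl3-P196D-A197D, 1.29 in npl3-F245I and 0.68 in NPL3. The IME1 call in npl3-P196D-A197D was lost in a fit of the compared groups alone (edgeR, adjusted p = 0.0621). IME2 had a lower response in each mutant, with a difference from NPL3 of -0.48 in npl3-F162Y, -0.35 in npl3-P196D-A197D and -0.24 in npl3-F245I on the log2 scale. NDT80 had the lowest difference of the 4 regulators, at -0.57 in npl3-F162Y, -0.35 in npl3-P196D-A197D and -0.84 in npl3-F245I.

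MPC54 showed one of the largest such differences. It had 37.1, 33.3 and 38.5 CPM at 37 °C and 40.9, 36.8 and 37 CPM at 30 °C in npl3-F245I, which overlap. In NPL3 it had 30.2, 32.8 and 33 CPM at 37 °C, against 16.4, 17.4 and 16.7 CPM at 30 °C, which do not. Its log2 responses were 0.26 in npl3-F162Y, 0.34 in npl3-P196D-A197D, -0.08 in npl3-F245I and 0.93 in NPL3. GAS4 had responses of -0.07 in npl3-F162Y, 0.34 in npl3-P196D-A197D, -0.44 in npl3-F245I and 0.77 in NPL3, MEK1 of 0.80 in npl3-F162Y, 1.58 in npl3-P196D-A197D, 1.30 in npl3-F245I and 1.85 in NPL3 and SPO21 of -0.16 in npl3-F162Y, -0.39 in npl3-P196D-A197D, -0.21 in npl3-F245I and 0.32 in NPL3. SPO21 thus fell with the shift in npl3-P196D-A197D and npl3-F245I and rose in NPL3.

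The alleles were also set against each other. At 30 °C, npl3-P196D-A197D was lower than npl3-F162Y for 20 genes and higher for 1, SPS4, where 11.1% of all features were lower and 14.1% higher. It was lower than npl3-F245I for 9 and higher for 2 (11.6% and 16.6%). Between npl3-F245I and npl3-F162Y, 9 genes were lower and 5 higher (16.9% and 16.8%). Leaving out npl3-F162Y replicate 1 took the first of these counts, 21 in all, to 13, and leaving out npl3-F162Y replicate 3 took the third, 14 in all, to 9.

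The allele differences at 30 °C were largest for genes already named. In npl3-F245I relative to npl3-F162Y, RED1 and IME1 were higher, by 0.41 and 0.40 on the log2 scale, and SPR3 and SPR28 lower, with log2 differences of -0.86 and -0.70. In npl3-P196D-A197D relative to npl3-F245I, MSH4 and SPR3 were higher, by 0.59 and 0.49, and ZIP1 and RED1 lower, with -0.96 and -0.55. The calls of SPS2 (-0.92) and MEK1 (-0.78) between npl3-P196D-A197D and npl3-F162Y each ended when 1 of several libraries was left out, with adjusted p of 0.0543 to 0.099 for SPS2 and 0.0566 to 0.0785 for MEK1.

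At 37 °C, npl3-P196D-A197D was lower than npl3-F162Y for 11 genes and higher for 1 (8.93% and 10.4% of all features). It was lower than npl3-F245I for 10 and higher for 13 (17% and 20.7%). In npl3-F245I, 19 genes were lower and 5 higher than in npl3-F162Y (19.7% and 18.5%). IME1 and ZIP1 were highest in npl3-F245I, by 0.58 and 0.55 on the log2 scale relative to npl3-F162Y. SPR3 was lower in npl3-F245I than in npl3-F162Y, with a log2 difference of -1.01, and in npl3-P196D-A197D SPR3 and GAS4 were higher than in npl3-F245I, by 0.80 and 0.71. The 1 gene higher in npl3-P196D-A197D than in npl3-F162Y, DIT2, lost its call in a fit of the compared groups alone (adjusted p = 0.137), and the MEI5 and SPS2 calls between alleles at 37 °C were likewise lost without 1 of several libraries.

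Rises were also counted apart for genes with and without the motifs. At 30 °C, 10 of the 12 genes with URS1 rose in npl3-F162Y, 7 in npl3-P196D-A197D and 10 in npl3-F245I, with median log2 changes of 0.84, 0.56 and 0.85. Of the 9 genes with an MSE, 6 rose in npl3-F162Y, 5 in npl3-P196D-A197D and 6 in npl3-F245I, with medians of 0.73, 0.56 and 0.61. Of the 20 with neither motif, 17, 14 and 17 rose in these alleles, with medians of 0.69, 0.41 and 0.60. Over all features 29.8%, 24.1% and 24.5% rose in the 3 alleles. At 37 °C 9, 6 and 7 of the 12 with URS1 rose and 1, 1 and 1 fell. Of the 9 with an MSE 4, 3 and 3 rose there and 1, 1 and 2 fell. Of the 20 with neither 14, 12 and 12 rose and 2, 1 and 4 fell. Over all features 28%, 21.3% and 24% rose at 37 °C. The difference between these groups of genes was not tested. Introns were frequent in the set, in 9 of 41 genes (22.0%), against 271 of 6002 nuclear protein-coding genes (4.52%). Of the 9 genes with an intron 8, 6 and 8 rose at 30 °C in npl3-F162Y, npl3-P196D-A197D and npl3-F245I, and of the 32 without an intron 25, 20 and 25 rose. At 37 °C 6, 4 and 3 of the 9 rose and 1, 1 and 1 fell in these alleles. Of the 32 without an intron 21, 17 and 19 rose and 3, 2 and 6 fell at 37 °C.

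For 21 of the genes the nearest upstream gene lay on the same strand and was itself tested, and reads that run on from it could be counted in the gene below. In npl3-F162Y 19 of these 21 genes rose at 30 °C, and the upstream neighbour rose for 8 of the 19 and not for 11. In npl3-P196D-A197D the neighbour rose for 6 of 15 and in npl3-F245I for 9 of 19, where 29.8%, 24.1% and 24.5% of all features rose in the 3 alleles. AMA1 lies 497 bases below AZR1, which rose by 3.13, 2.51 and 2.95 on the log2 scale in npl3-F162Y, npl3-P196D-A197D and npl3-F245I, and MPC54 lies 680 bases below GAC1, which rose by 1.80, 1.27 and 1.38. In contrast, SPO21 and MSH5 rose while their neighbours YPQ1 and CLB3 fell in all 3, and SPR3 rose while PEF1 did not pass in any. At 37 °C the upstream neighbour rose for 9 of the 15 of these genes that rose in npl3-F162Y. It rose for 7 of 11 in npl3-P196D-A197D and 5 of 12 in npl3-F245I. Over all features 28%, 21.3% and 24% rose at 37 °C in the 3 alleles. The part of such neighbours in the results was not tested.

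Other genes of the same programme were counted in the same way. They were listed apart from the 41, except UME6, which is also in the list of repressors. These lists too were chosen with earlier results of these data known. Of 36 further middle and late sporulation genes, 26 rose in npl3-F162Y at 30 °C, 25 in npl3-P196D-A197D and 25 in npl3-F245I, and 2 fell in each, with median log2 changes of 0.70, 0.47 and 0.54. Over all features the shares that rose were 29.8%, 24.1% and 24.5%. CDA2, a chitin deacetylase of the spore wall, rose most, with log2 changes of 4.00 in npl3-F162Y, 3.50 in npl3-P196D-A197D and 3.14 in npl3-F245I, followed by OSW1, a spore wall gene, with 2.89 in npl3-F162Y, 2.48 in npl3-P196D-A197D and 2.30 in npl3-F245I; SPR6 fell in all 3, with -0.56 in npl3-F162Y, -0.36 in npl3-P196D-A197D and -0.45 in npl3-F245I. Of 20 further early genes 11 rose in npl3-F162Y, 7 in npl3-P196D-A197D and 10 in npl3-F245I, and 5, 3 and 5 fell in these alleles. In the npl3-P196D-A197D strain this is 7 of 20, where 24.1% of all features rose. NDJ1, which tethers telomeres in meiosis, had log2 changes of 1.26 in npl3-F162Y, 1.47 in npl3-P196D-A197D and 0.88 in npl3-F245I, PCH2, a checkpoint ATPase, of 1.29 in npl3-F162Y, 1.06 in npl3-P196D-A197D and 0.96 in npl3-F245I, SLZ1 of 1.34 in npl3-F162Y, 0.54 in npl3-P196D-A197D and 1.54 in npl3-F245I, and GMC1 fell, with -0.50 in npl3-F162Y, -0.24 in npl3-P196D-A197D and -0.32 in npl3-F245I. IME4, an RNA methyltransferase that promotes meiosis, had few reads, with 29, 15 and 13 counts in npl3-F162Y, 3, 8 and 14 counts in npl3-P196D-A197D and 15, 21 and 12 counts in npl3-F245I, against 7, 7 and 9 counts in NPL3. It rose in npl3-F162Y (log2 1.39) and npl3-F245I (log2 1.08). The antisense RNA RME2, which represses IME4 and contains the whole gene on the other strand, fell in all 3, with -0.49 in npl3-F162Y, -0.29 in npl3-P196D-A197D and -0.27 in npl3-F245I.

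At 37 °C 26, 22 and 15 of the 36 other middle and late genes rose and 2, 1 and 2 fell in npl3-F162Y, npl3-P196D-A197D and npl3-F245I, and 9, 7 and 4 of the 20 other early genes rose and 5, 4 and 4 fell. Of all features 28%, 21.3% and 24% rose in these comparisons, so that the 4 of 20 early genes in npl3-F245I did not exceed that share. Of 10 repressors of meiotic genes in mitotic cells, 5 fell and 2 rose in npl3-F162Y at 30 °C, 5 fell and 1 rose in npl3-P196D-A197D, and 6 fell and none rose in npl3-F245I, where 38.6%, 31.7% and 33.3% of all features fell. RPD3, the deacetylase, fell by 1.47-fold in npl3-F162Y, 1.25-fold in npl3-P196D-A197D and 1.35-fold in npl3-F245I. SUM1, the MSE-binding repressor, had log2 changes of -0.43 in npl3-F162Y, -0.26 in npl3-P196D-A197D and -0.39 in npl3-F245I, and SIN3, the scaffold of the deacetylase complex, of 0.17 in npl3-F162Y; for SIN3 the change was 0.15 in npl3-P196D-A197D and did not pass in npl3-F245I. At 37 °C 6, 3 and 4 of the 10 fell and 2, 0 and 2 rose, where 30.8%, 22.4% and 26.5% of all features fell.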

How the data were processed

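The deposited table held read counts per feature for 24 libraries, made by the authors. Per the submitters' processing notes, reads were checked with FastQC, aligned by STAR 2.7.2a on build R64, then counted with HTSeq; per the labels' protocols, libraries came from Trizol total RNA with a stranded TruSeq mRNA kit. HTSeq's strand setting is not given in the sources used. However, 12 of 13 features that lie wholly inside a feature of the other strand had counts above 0, which unstranded counting would leave ambiguous. Rows that name no gene (no feature, 4.39 to 6.51%; ambiguous, 0.787 to 1.01%) were left out.

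Genes were matched by systematic name, filtered with edgeR's filterByExpr by group, scaled by TMM and tested in R 4.3.3 with edgeR 4.0.16: 1 mean per group over all 24 libraries (15.8 to 34.7 M counts each), robust quasi-likelihood F-tests of 19 comparisons, Benjamini-Hochberg adjustment over 6518 features at 0.05, whatever the fold. The common biological coefficient of variation (BCV) came to 5.26% at 16 residual degrees of freedom. Intervals are 95%. DESeq2 1.42.0, RLE scaling, other filters, smaller fits, replicate blocks, left-out libraries and fits without or with a term for the other sample number series (replicate 2 of each group at 37 °C) were alternatives. The code was tested on simulated data. Same-numbered libraries of npl3-F162Y and NPL3 at 37 °C deviated together (r = 0.2352, 0.5708 and 0.2795 across genes). The deviations of 3 libraries from their own mean are not independent, so these values cannot show that the numbers pair the libraries. The labels give no such pairing. No other comparison had every pair above 0.1. The replicate 2 pair gave r of 0.3526 to 0.5904 in every comparison of strains at 37 °C. These replicates carry the other sample number series, so replicate number and number series cannot be told apart there. BLAST 2.17.0 found no other coding sequence with 95% identity over 100 bases for any of the 41 genes.

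The 41 genes and the other lists were chosen with earlier results of these data known. Values were written out for the 4 regulators, for the 4 largest changes and 2 largest the other way that passed in each mutant, the 3 largest each way in the NPL3 response to 37 °C, and the 2 largest each way between responses and between alleles; for the other lists, examples come from the 2 largest each way, and other genes are named to give every one of the 41 a place.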

Additional observations from a re-analysis of the deposited data

Results flagged for a closer look

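The response to 37 °C differed between a mutant and NPL3 by the interaction test (edgeR, adjusted p under 0.05) for these genes, as the log2 response in the mutant minus that in NPL3. In npl3-F162Y the difference was 0.44 for IME1, -1.05 for MEK1 and -0.84 for GAS4. In npl3-P196D-A197D it was 0.32 for IME1, -0.71 for SPO21 and -0.59 for MPC54. In npl3-F245I it was 0.61 for IME1, -1.01 for MPC54 and -1.20 for GAS4. The IME1 difference in npl3-P196D-A197D did not pass in a fit of the compared groups alone (edgeR, adjusted p = 0.0621). MEK1 had 10 to 127 counts per library and GAS4 58 to 182. The differences in all mutants rest on the same NPL3 libraries, so they are not independent of each other.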

How the results depend on the processing

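Counts of the 41 genes that passed were within 1.5 times the reported count for 16 of 19 comparisons under every alternative run. The exceptions were the response of npl3-P196D-A197D against that of NPL3 (5 reported; 3 in a fit of the compared groups alone, and 4 to 8 with 1 library left out), npl3-P196D-A197D against npl3-F162Y at 30 °C (21 reported; 13 to 20 with 1 library left out) and npl3-F245I against npl3-F162Y at 30 °C (14 reported; 9 to 12 with 1 library left out, and 13 to 21 under the other settings). With replicate number as a block the count for npl3-F162Y against NPL3 at 37 °C, where same-numbered libraries deviated together, was 33 in place of 31. The block moved no count by 1.5 times and no call of a named gene. Over all groups 10 of 24 libraries had, outside their own group, their highest correlation with one of the same number. Of the values of named genes under the alternatives, 1361 kept direction and call, 23 lost the call, 7 gained it and 0 changed sign; the cause was not tested. NDT80 in npl3-F162Y at 37 °C gained a call under some settings (edgeR, adjusted p = 0.0184 to 0.0469), as did UME6 there (adjusted p = 0.0085 to 0.0306, lowest without npl3-F162Y replicate 2). The share of promoters with an MSE was 3.45% in the 250 bases before the start codon alone, against 4.32% in the longer window. Depth limits MEI5, SAE3, SPS2, REC114 and MEK1 most.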
